A study of Mus musculus with 12 samples.

Results

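Trp53, the gene of the tumour suppressor p53, and 9 genes of its pathway were followed across 12 RNA sequencing libraries of NU1 cells. The members were chosen by symbol, as rows of the raw count table: Trp53, Mdm2, Mdm4, Ccng1, Zmat3, Phlda3, Eda2r, Trp53inp1, Sesn2 and Aen, which are 10 of 23337 gene symbols. All 10 were found in the table and all 10 passed the filter on low counts. NU1 is a line of normal mouse urothelial cells that became immortal by itself during passaging, and it was grown in a medium with serum and epidermal growth factor. The 4 groups held 3 libraries each. Proliferating cells carried the control hairpin shNT (genotype labelled WT) or the hairpin sh4 (labelled Stag2-KD). Cells labelled quiescent (differentiation day 7) likewise carried shNT or sh4. Both hairpins were delivered by lentivirus, so the control cells carried a hairpin too. For quiescence, cells were taken to confluence and then given 1 µM rosiglitazone, an activator of the nuclear receptor PPAR gamma, and 0.5 µM erlotinib, an inhibitor of the epidermal growth factor receptor. Cell density and the 2 drugs cannot be told apart in this design. Stag2 encodes a cohesin subunit (cohesin is a ring that entraps DNA, pairs sister chromatids and shapes chromatin loops), and the study asked how its loss alters transcription in each state. Stag2 was targeted by 1 hairpin in 1 cell line. The p53 status and the strain of NU1 are not given in the sources used here.

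p53 is a transcription factor that responds to DNA damage and other stress by inducing genes of cell cycle arrest, DNA repair and cell death. Mdm2 is a ubiquitin ligase that marks p53 for destruction and is itself induced by p53, which closes a negative feedback loop. Mdm4 is a relative of Mdm2 that binds p53 and blocks its activation domain. The activity of p53 is set largely by the stability of the protein, so the level of Trp53 mRNA is not a measure of it. In urothelium the pathway is known for its frequent loss in muscle-invasive bladder cancer.

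The promoter windows of the members were searched for letters that match the p53 consensus response element, made of 2 adjacent half-sites of 10 bases. Binding of p53 was not measured. A match kept the C and the G of both half-site cores, 4 bases in all, and allowed at most 3 mismatches among the 20 bases. The element reads the same on both strands, so 1 search covered both. Windows ran from 250 bases before to 50 bases after a RefSeq start site (GRCm38.p6, the coordinates of mm10), and 8 of the 10 members had 1 or more of them, with no entry for Zmat3 and Trp53inp1. A match was found in 3 of these 8 members, Ccng1, Aen and Trp53, and in Cdkn1a, a classic p53 target that is shown as a reference. Of all 27025 genes with a window, 1.63% held a match with at most 3 mismatches and 0.0814% held one with at most 1. Counted by window, 4 of the 10 windows of the members held a match, beside 1.38% of all 32851 windows. With at most 1 mismatch the share of all windows was 0.067%. The sequences below are 30 bases each, 5′ to 3′ on the strand of the gene, with the 20 bases of the match in capitals.
Cdkn1a, 1 mismatch, chr17:29090923-29090952, plus strand: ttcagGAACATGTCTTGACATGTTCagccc
Ccng1, 1 mismatch, chr11:40755457-40755486, minus strand: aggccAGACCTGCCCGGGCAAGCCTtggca
Aen, 3 mismatches, chr7:78895932-78895961, plus strand: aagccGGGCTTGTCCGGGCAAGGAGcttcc
Trp53, 3 mismatches, chr11:69580279-69580308, plus strand: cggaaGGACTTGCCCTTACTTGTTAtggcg
The match in Cdkn1a began 51 bases before 1 annotated start site, and the window of another start site of Cdkn1a held none. In Ccng1 the match began 195 bases before the start site and in Trp53 75 bases before it. In Aen it lay 121 bases before 1 annotated start site and 10 bases after another. These matches describe letters only, and nothing is drawn from their absence in the windows of Mdm2, Mdm4, Phlda3, Eda2r and Sesn2.

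Library totals ran from 14524429 to 21987539 counts, and levels below are CPM, counts scaled to a common library size, with totals adjusted by TMM. Stag2 in proliferating cells stood at 139, 145 and 113 CPM in the controls of experiments 5, 7 and 9 and at 33.3, 24.9 and 24.6 CPM with sh4 (log2 fold change −2.26, SE 0.19, adjusted p 0.00121). In quiescent cells it stood at 128, 126 and 107 CPM in controls and at 9.43, 15.3 and 11.7 CPM with sh4 (−3.32, SE 0.20, adjusted p 3.39e-05), so less Stag2 mRNA remained in the quiescent than in the proliferating knockdown libraries (−1.19, adjusted p 0.00208). Of 15 urothelial markers, 13 passed the filter. Krt8 (3493 to 9042 CPM) and Krt18 (2607 to 6508 CPM) were abundant, but Krt5 (0.414 to 6.60 CPM), Krt14 (0.184 to 10.6 CPM) and the uroplakins (at most 3.94 CPM) were low. The summed urothelial markers ran from 8451 to 13394 CPM in proliferating controls, 10005 to 12596 with knockdown, 8985 to 15337 in quiescent controls and 17100.4 to 17546 in quiescent knockdown libraries, and their part in the results below was not tested. Fibroblast markers summed to at most 2.22 CPM (1 of 6 passed the filter; Col1a2 and Col3a1 at 0), immune markers to 9.42 (1 of 4; Cd3e at 0), endothelial markers to 0.239 and smooth muscle markers to 0.298 CPM (0 of 3 each). In these bulk libraries, fewer cells of a kind and less RNA per cell cannot be told apart.

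Trp53 itself (chromosome 11, 69580359 to 69591873 on the plus strand) was lower in quiescent cells. In experiments 5, 7 and 9 it stood at 193, 263 and 272 CPM in proliferating controls and at 164, 187 and 158 CPM in quiescent controls. With Stag2 knockdown it stood at 199, 262 and 231 CPM in proliferating cells and at 151, 176 and 129 CPM in quiescent cells. Every quiescent library lay below every proliferating one, under either hairpin. In knockdown cells Trp53 fell by 0.60 on the log2 scale (SE 0.17, adjusted p 0.0316), to 0.662 of its proliferating level, and was lower in 3 of 3 experiments. In control cells the log2 difference was −0.52 (SE 0.17), lower in 3 of 3 experiments, with an adjusted p of 0.0505. With the experiment as a replicate block that comparison was called (−0.51, adjusted p 0.0124). In knockdown cells the replicate block gave −0.59 (adjusted p 0.00639) and DESeq2 −0.59 (adjusted p 0.00819). The fits that left out 1 library had no block. The call in knockdown cells was lost when any of 4 libraries was left out: the proliferating knockdown libraries of experiments 7 and 9 or the quiescent knockdown libraries of experiments 5 and 9 (adjusted p up to 0.127). The call in control cells appeared without either proliferating library of experiment 5. The interaction is the log2 effect of knockdown in quiescence less its log2 effect in proliferation, and was −0.08 (95% interval −0.60 to 0.44) for Trp53.

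Mdm2 (chromosome 10, 117688875 to 117710758, minus strand) was the other member to fall. Its levels in experiments 5, 7 and 9 were 217, 258 and 332 CPM in proliferating controls, 243, 246 and 315 CPM in proliferating knockdown cells, 217, 213 and 247 CPM in quiescent controls and 159, 194 and 187 CPM in quiescent knockdown cells. The 3 quiescent knockdown libraries were the lowest of all 12. Between the states in knockdown cells Mdm2 fell by 0.57 (SE 0.17, adjusted p 0.0361), to 0.672 of its proliferating level and in 3 of 3 experiments. In control cells the log2 difference was −0.25 (SE 0.17, adjusted p 0.309), and the 2 groups overlapped. For quiescence in knockdown cells the replicate block gave −0.57 (adjusted p 0.00427) and DESeq2 −0.57 (adjusted p 0.0132). Without the block, the call in knockdown cells was lost in 8 of the 12 fits that left out 1 library (adjusted p up to 0.138). It was kept without the proliferating controls of experiment 5 or 9, the proliferating knockdown library of experiment 5 or the quiescent control of experiment 9. Among quiescent cells, knockdown libraries lay below all controls for Mdm2, with a log2 difference of −0.33 (95% interval −0.69 to 0.04, adjusted p 0.485), and within experiments of −0.45, −0.14 and −0.40. With the replicate block the interval was −0.58 to −0.07 (adjusted p 0.140).

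Trp53 and Mdm2 were the 2 of 10 members called for quiescence in knockdown cells, both lower. In that comparison 18.4% of the 12406 tested genes were called in either direction and 10.8% were called lower. With the replicate block the same 2 members were called, beside 33.0% of genes in either direction, and 2129 genes were called lower. DESeq2 called the same 2 members, beside 2979 of its 17542 genes. For quiescence in control cells 0 of 10 members were called, beside 20.0% of tested genes. There, 2 members had an unadjusted p under 0.05, beside 4314 of the 12406 genes. With the replicate block 1 member was called (35.3% of all genes in that fit), and DESeq2 called 2, beside 3197 of its 17542 genes. A call means an adjusted p under 0.05 in edgeR's quasi-likelihood test.

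Mdm4 (chromosome 1, 132959484 to 133030561, minus strand) showed no call. It stood at 42.6, 56.3 and 38.6 CPM in proliferating controls, 48.8, 42.5 and 43.8 CPM in proliferating knockdown cells, 52.8, 43.5 and 38.1 CPM in quiescent controls and 26.2, 45.2 and 43.2 CPM in quiescent knockdown cells. The quiescent knockdown library of experiment 5 was the lowest, and its difference from the control of the same experiment was −1.01, against 0.06 and 0.18 in experiments 7 and 9. Per kilobase of annotated exon, Mdm4 was the least abundant member (1.77 to 3.81 CPM per kb) against 31.3 to 65.2 CPM per kb for Mdm2. The annotated gene overlaps a pseudogene on the opposite strand, and whether counting used strand is not given in the sources used here.

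**Figure D1:**
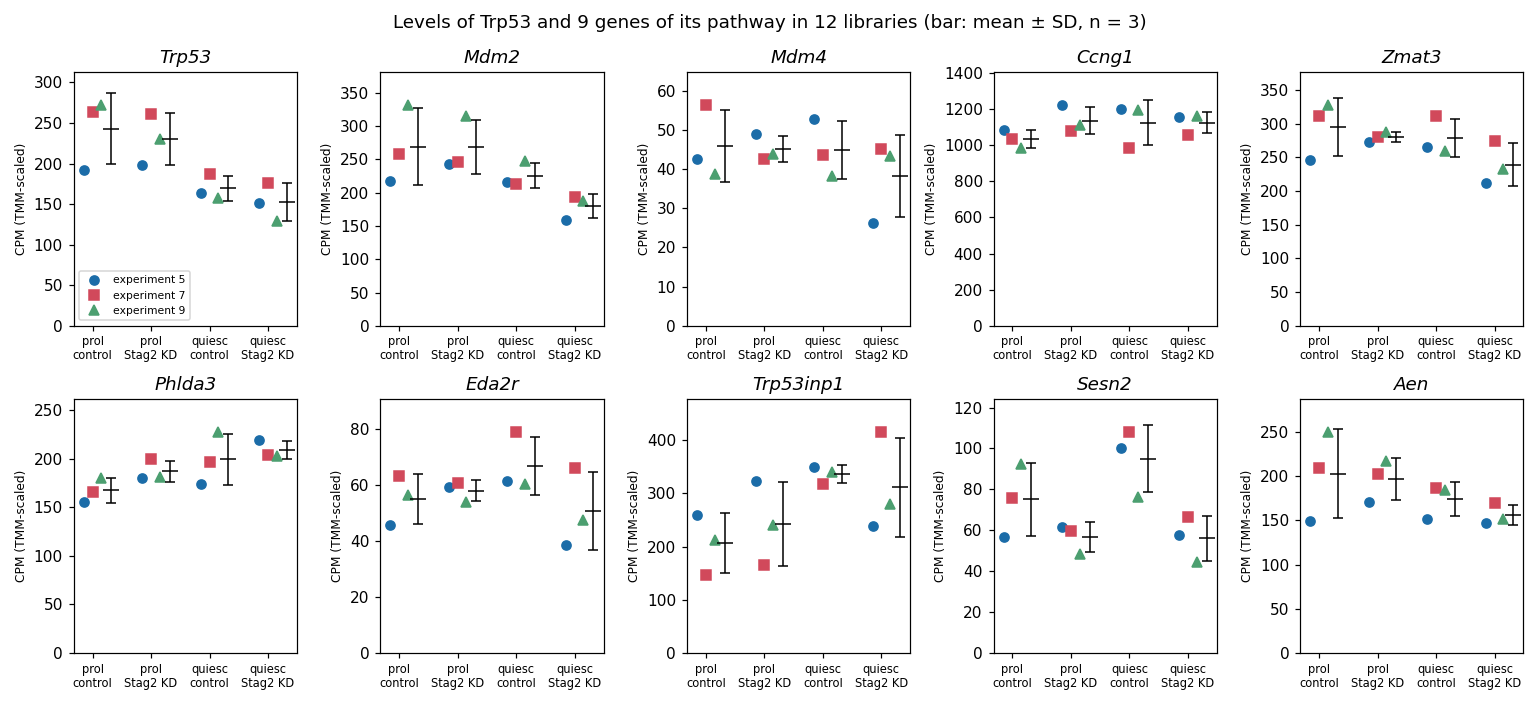
Each panel plots the TMM-scaled CPM of 1 gene on a linear axis from 0 against the 4 groups; points are libraries, coloured by experiment, and bars are the mean ± SD of 3 libraries. Trp53 is lower in every quiescent library than in every proliferating one, and Mdm2 is lowest in the 3 quiescent knockdown libraries (159 to 194 CPM).

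Ccng1 encodes cyclin G1, a p53 target that takes a phosphatase to Mdm2. It was by far the most abundant member per kilobase (280 to 348 CPM per kb) and varied least, from 982 to 1223 CPM over the 12 libraries. Group means were 1035 ± 49.9 CPM in proliferating controls, 1137 ± 76.3 in proliferating knockdown cells, 1125 ± 124 in quiescent controls and 1126 ± 58.2 in quiescent knockdown cells (SD, n = 3). No comparison of Ccng1 was called, and its 95% intervals for quiescence were −0.15 to 0.39 in control cells and −0.28 to 0.26 in knockdown cells. Among the windows of the members, which covered 8 of the 10, its promoter match, printed above, was the closest to the consensus. It had 1 mismatch, as did the match of Cdkn1a.

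Zmat3, which encodes a zinc finger protein that binds RNA, ran from 211 to 328 CPM. Its group means were 295 ± 43.5 CPM in proliferating controls, 280.1 ± 7.37 in proliferating knockdown cells, 279 ± 28.5 in quiescent controls and 239 ± 31.8 CPM in quiescent knockdown cells, all overlapping. Aen, an apoptosis-enhancing nuclease, stood at 149, 209 and 249.8 CPM in proliferating controls, 170.3, 202 and 218 CPM in proliferating knockdown cells, 152, 186 and 184 CPM in quiescent controls and 147, 169 and 152 CPM in quiescent knockdown cells. The quiescent knockdown libraries of Aen lay below the proliferating knockdown ones without a call (log2 difference −0.33, adjusted p 0.213). The same order of group means was seen in Trp53, Mdm2, Mdm4, Zmat3 and Aen. It ran from proliferating control, the highest, through proliferating knockdown and quiescent control to quiescent knockdown. Some steps were small: the proliferating control and knockdown means were 269 and 268 CPM for Mdm2 and 45.9 and 45.0 CPM for Mdm4. The share of all tested genes with this order was not counted. Neighbours in that order were apart only between proliferating knockdown and quiescent control for Trp53, and between quiescent control and quiescent knockdown for Mdm2.

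Phlda3 and Trp53inp1 had other orders, with both quiescent means above both proliferating means. Phlda3, whose product competes with the kinase Akt for membrane lipids, stood at 155, 166 and 180.4 CPM in proliferating controls and at 174, 196 and 227 CPM in quiescent controls. With knockdown it stood at 180.5, 199.5 and 181 CPM in proliferating and 219, 204 and 203 CPM in quiescent cells. The quiescent knockdown libraries were all above the proliferating knockdown ones, and the proliferating knockdown libraries all above their controls, though the closest of these stood at 180.4 and 180.5 CPM. Log2 differences for Phlda3 were 0.25 for quiescence in controls (95% interval −0.01 to 0.51, adjusted p 0.154) and 0.16 in knockdown cells (−0.10 to 0.42, adjusted p 0.380).

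Trp53inp1 encodes a nuclear stress protein that acts with p53 and in autophagy. Its levels were 260.0, 148 and 213 CPM in proliferating controls and 351, 317 and 341 CPM in quiescent controls, with no overlap. The log2 difference was 0.70 (SE 0.28, 95% interval 0.10 to 1.30, adjusted p 0.0954), higher in 3 of 3 experiments, and it was called only by DESeq2 among the alternatives run (adjusted p 0.0494). With knockdown the levels were 323, 165 and 241 CPM in proliferating and 238, 415 and 280.5 CPM in quiescent cells, which overlapped (0.35, 95% interval −0.25 to 0.96). Within experiments 5, 7 and 9 that difference was −0.44, 1.33 and 0.22. Over all 12 libraries Trp53inp1 spanned 1.49 on the log2 scale, the widest range of the members, beside 0.32 for Ccng1.

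**Figure D2:**
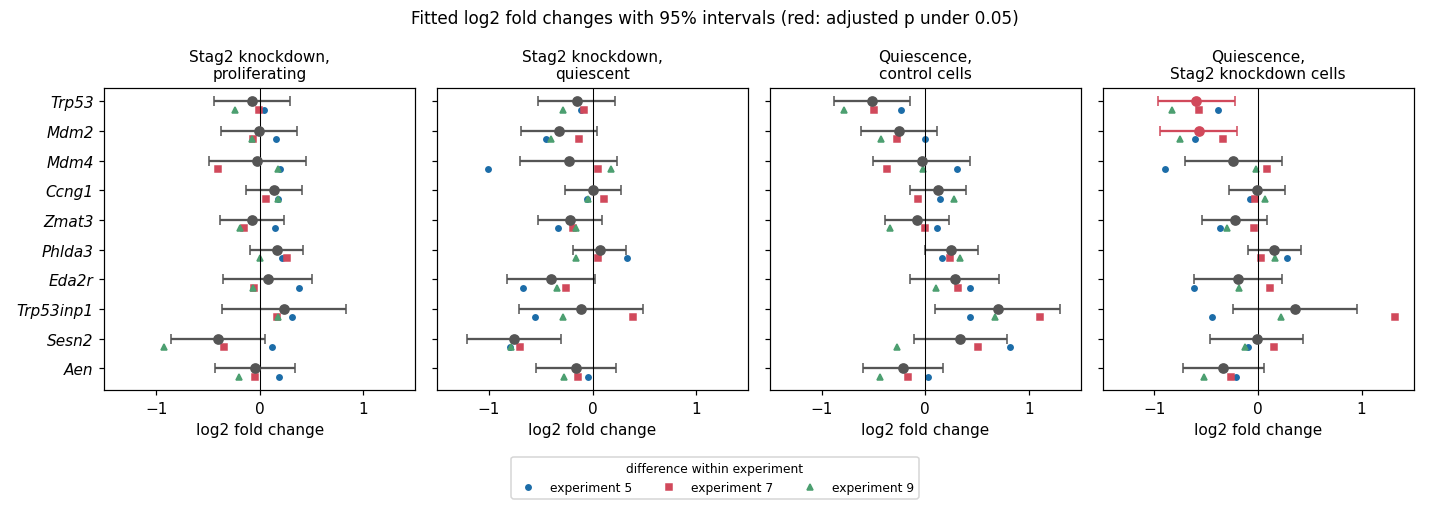
Each row is 1 gene and each panel 1 comparison; large points are fitted log2 fold changes with 95% intervals, small symbols the log2 differences within experiments 5, 7 and 9. The intervals of Trp53 and Mdm2 for quiescence in knockdown cells are red, the calls at an adjusted p under 0.05, and the interval of Sesn2 for knockdown in quiescent cells (−1.21 to −0.30) lies wholly below 0 without a call.

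Stag2 knockdown called 0 of 10 members in proliferating cells, where it called 0.0242% of tested genes. It also called 0 of 10 in quiescent cells, where it called 0.435% (3.55% with the replicate block, again 0 members). The number called there was 54, and 5 to 64 when 1 library was left out, again with 0 members. It was 5 without the quiescent knockdown library of experiment 9 and 12 without the quiescent control of experiment 9. At an unadjusted p under 0.05 there were 0 members in proliferating cells and 1 in quiescent cells, beside 228 and 1489 of all tested genes. With the replicate block these were 0 and 3 members, beside 645 and 2527 genes, and the 3 were Sesn2, Mdm2 and Eda2r. DESeq2 called 0 and 1 member, beside 12 and 377 of 17542 genes. The 1 member for quiescent cells, without the block and by DESeq2, was Sesn2.

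Sesn2 (chromosome 4, 132492032 to 132510501, minus strand) encodes sestrin 2, a leucine sensor that restrains the growth kinase complex mTORC1. In quiescent cells of experiments 5, 7 and 9 it stood at 100.3, 108 and 76.5 CPM in controls and at 57.7, 66.4 and 44.4 CPM with Stag2 knockdown. The groups did not overlap, and the differences within experiments were close to each other, at −0.80, −0.70 and −0.78. The fitted log2 difference was −0.76 (SE 0.21, 95% interval −1.21 to −0.30), 0.592 of the control level, with an unadjusted p of 0.00356 and an adjusted p of 0.153. The adjusted p was 0.0589 with the replicate block and 0.0298 by DESeq2, and ran from 0.122 to 0.481 when 1 library was left out. In proliferating cells Sesn2 stood at 56.9, 76.0 and 92.4 CPM in controls and at 61.8, 59.7 and 48.6 CPM with knockdown, which overlapped. The differences there were 0.12, −0.35 and −0.93 (fitted −0.41, 95% interval −0.86 to 0.05). Whether the effect of knockdown on Sesn2 differed between the states was tested by the interaction, which was −0.35 (95% interval −0.99 to 0.29, adjusted p 0.9997). The annotated gene overlaps a non-coding gene on the same strand.

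Eda2r, a receptor of the tumour necrosis factor receptor family that binds ectodysplasin A2, stood at 61.7, 79.0 and 60.5 CPM in quiescent controls and at 38.7, 66.3 and 47.5 CPM in quiescent knockdown cells. These groups overlapped, while each knockdown library lay below the control of its own experiment (−0.67, −0.25 and −0.35). The fitted difference was −0.40 (95% interval −0.83 to 0.03, adjusted p 0.458), and with the replicate block −0.42 (−0.71 to −0.13, adjusted p 0.104). In proliferating cells Eda2r stood at 45.7, 63.4 and 56.4 CPM in controls and at 59.3, 61.0 and 53.9 CPM with knockdown (0.07, 95% interval −0.35 to 0.50).

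**Figure D3:**
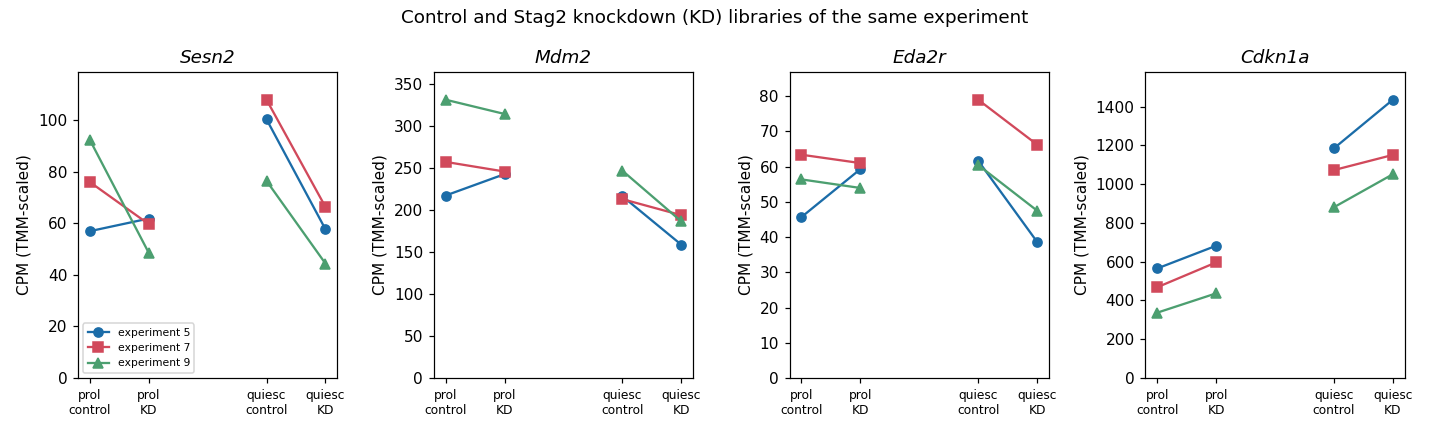
Lines join the control and the Stag2 knockdown library of the same experiment, in proliferating (prol) and quiescent (quiesc) cells, for 4 genes; the vertical axes are TMM-scaled CPM from 0. For Sesn2, Mdm2 and Eda2r all 3 lines slope down in quiescent cells, and for Cdkn1a all 3 slope up in both states.

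In quiescent cells 6 of 10 members were lower with knockdown in every experiment (Trp53, Mdm2, Zmat3, Eda2r, Sesn2 and Aen) and 0 were higher in every experiment, beside 21.3% of all tested genes lower and 25.4% higher. The groups were apart for 2 members, Mdm2 and Sesn2, both lower, beside 8.85% of all genes lower and 10.2% higher. In proliferating cells 3 members were higher in every experiment (Ccng1, Phlda3 and Trp53inp1) and 0 lower, beside 19.8% and 21.3% of all genes. The groups were apart there for Phlda3 alone, which was higher, beside 2.66% of all genes higher and 2.65% lower. The median log2 fold change of the members was −0.02 in proliferating and −0.19 in quiescent cells, beside −0.002 and 0.02 for all tested genes. The proliferating median had no stable sign: it was −0.11, with 3 of 10 members positive, without the proliferating control of experiment 5 and 0.09, with 8 of 10 positive, without that of experiment 9. Without the quiescent knockdown library of experiment 7 the quiescent median was −0.35, and without that of experiment 5 it was −0.13.

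The fitted interaction was negative for 10 of 10 members, from −0.48 (Eda2r) to −0.08 (Trp53) with a median of −0.17, whereas 48.5% of all tested genes had a negative value and their median was 0.009. None was called: the adjusted p was 0.9997 for each member without and at least 0.974 with the replicate block, and the members at an unadjusted p under 0.05 numbered 0 in that first fit and 1 in the second. No gene in the table was called for the interaction in either fit (0% of 12406). At an unadjusted p under 0.05 there were 219 genes in the first fit and 590 in the second. The 10 members share the same 12 libraries, so their signs are not independent. The sign was negative in every experiment for 4 members (Trp53, Mdm2, Eda2r and Aen) and positive in every experiment for 0, beside 14.3% and 16.4% of all genes. By experiment, 9 of 10 were negative in experiment 5 (median −0.54), 7 in experiment 7 (−0.07) and 7 in experiment 9 (−0.12), beside 46.2%, 49.6% and 50.4% of all genes. Leaving out 1 library gave 8 to 10 negative members. The median ran from −0.29 without the quiescent knockdown library of experiment 7 to −0.14 without that of experiment 5. Experiment 5 stood apart in its proliferating pair, where 10 of 10 members were higher with knockdown, beside 47.2% of all genes. In the proliferating pairs of experiments 7 and 9, 3 and 4 members were higher. In the quiescent pairs, 9 of 10 members were lower in experiments 5 and 9 and 6 in experiment 7. Of all genes 46.3%, 49.4% and 47.8% were lower in the quiescent pairs of experiments 5, 9 and 7. The quiescent knockdown library of experiment 5 held the lowest level of 5 members (Mdm2, Mdm4, Zmat3, Eda2r and Aen). Without it, the median for quiescence in knockdown cells went from −0.21 to −0.04.

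For quiescence, 1 member was apart and higher in control cells (Trp53inp1) and 1 apart and lower (Trp53), beside 17.1% and 18.5% of all tested genes. In knockdown cells 1 was higher (Phlda3) and 3 were lower (Trp53, Mdm2 and Aen), beside 18.1% and 19.1%. In every experiment, 3 members were higher (Phlda3, Eda2r and Trp53inp1) and 2 lower (Trp53 and Mdm2) for quiescence in control cells, beside 31.5% of all genes each way. In knockdown cells 1 was higher (Phlda3) and 4 were lower (Trp53, Mdm2, Zmat3 and Aen), beside 28.2% and 27.3%. The member medians were 0.04 and −0.21, beside 0.005 and 0.005 for all genes. The control median ran from 0.02 without the quiescent control of experiment 5 to 0.13 without the proliferating control of experiment 7. The knockdown and quiescence comparisons share libraries, since each group enters 1 comparison of each kind.

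A wider list of 67 p53 pathway genes, none of them among the members, placed these values in context. It held upstream regulators and targets in arrest, death, repair, metabolism and signalling, of which all 67 were in the table, 5 of them under a RefSeq synonym, and 64 passed the filter. Quiescence in control cells called 11 of 64, 6 higher and 5 lower, beside 20.0% of all genes. In knockdown cells it called 13, 4 higher and 9 lower, beside 18.4%. With the replicate block the counts were 19 (8 higher and 11 lower) and 25 (9 and 16), beside 35.3% and 33.0%. The first count was 5, 7 and 6 without the proliferating controls of experiments 7 and 9 and the quiescent control of experiment 9, where the calls among all genes were also fewer, at 1394, 1565 and 1644 in place of 2481. The second was 8 and 7 without the proliferating and quiescent knockdown libraries of experiment 9, beside 1452 and 1186 of all genes in place of 2279.

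Among arrest targets, Cdkn1a, which encodes the cyclin-dependent kinase inhibitor p21, rose in quiescence under both hairpins. It stood at 565, 468 and 337 CPM in proliferating and 1185, 1073 and 881 CPM in quiescent controls (log2 fold change 1.20, SE 0.23, adjusted p 0.00421). In knockdown cells it stood at 682, 596 and 437 CPM and then at 1436, 1151 and 1051 CPM (SE 0.23, adjusted p 0.00753, and higher in 3 of 3 experiments). Every quiescent library was above every proliferating one, in contrast to Mdm2. Knockdown itself gave log2 differences of 0.32 in proliferating and 0.21 in quiescent cells, higher in 3 of 3 experiments in each, with adjusted p of 0.9998 and 0.781. Plk2, a polo-like kinase, also rose in both (0.50 and 0.59), and Btg2, an antiproliferative gene, rose in control cells (0.82, adjusted p 0.0271). Sfn, which encodes 14-3-3 sigma, fell from 149 to 288 CPM in proliferating controls to 72.0 to 98.2 CPM in quiescent controls (−1.43, adjusted p 0.00454) and likewise in knockdown cells (−1.31, adjusted p 0.00788). Gtse1, a gene of G2 and S phase, fell in knockdown cells (−1.42, adjusted p 0.0177), and in control cells it was called with the block only (−0.96, adjusted p 0.00150).

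Of the death targets, Pmaip1, which encodes the BH3-only protein Noxa, rose in control cells (1.40, adjusted p 0.00846) and in knockdown cells (1.44, adjusted p 0.00819). It stood at 58.0 to 78.8 CPM in proliferating controls and at 99.5 to 235 CPM in quiescent controls. Bbc3, which encodes Puma, rose in control cells (0.54, adjusted p 0.0364). Pidd1, listed under its synonym Lrdd, encodes a death-domain protein that activates caspase 2. It stood at 23.6, 19.3 and 26.7 CPM in proliferating and 5.08, 12.3 and 6.09 CPM in quiescent knockdown cells (−1.57, SE 0.30, adjusted p 0.00536), and the call held whichever library was left out. In control cells it stood at 22.5, 18.0 and 26.8 CPM and then at 13.1, 16.2 and 12.2 CPM (−0.70, adjusted p 0.122). Its interaction was −0.87 (95% interval −1.80 to 0.05, adjusted p 0.9997), negative in 3 of 3 experiments. Siva1 (−1.01) and Apaf1, the core of the apoptosome (−0.50), fell in knockdown cells, and Siva1 fell in control cells with the block only (adjusted p 0.0320). Xpc, a damage sensor of nucleotide excision repair, rose by 0.67 and 0.68 (adjusted p 0.00312 and 0.00326). The quiescence calls of Cdkn1a, Pmaip1, Xpc, Sfn and Chek1 held under both hairpins in the 12 fits with a library left out. Others were lost in some of them. In control cells, Btg2 and Atr lost the call without the proliferating libraries of experiments 7 and 9 or the quiescent libraries of experiments 5 and 9. Epha2 lost it there without the proliferating library of experiment 7, Gls2 in 5 fits, Bbc3 in 6 and Plk2 in 9. In knockdown cells, Apaf1 lost it without the proliferating library of experiment 9, Plk2 without the proliferating library of experiment 5 or the quiescent one of experiment 9, and Gtse1 without the proliferating library of experiment 9 or the quiescent ones of experiments 5 and 9. Siva1 and Dglucy lost it there in 5 fits and Epha2 and Gls2 in 9.

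Signalling and metabolic targets added further falls. Epha2, an ephrin receptor, fell by 0.86 in control cells (adjusted p 0.0134) and by 0.65 in knockdown cells (adjusted p 0.0450), and Dglucy, listed under its older symbol 9030617O03Rik, fell in knockdown cells (−0.54). Gls2, a glutaminase, was called lower in both (adjusted p 0.0336 and 0.0484) at 0.680 to 9.15 CPM, and is named here after its values were seen. Called with the block only were Gdf15 (1.17 and 0.85), Abhd4 (0.69 and 0.42), Ak1 (−1.25 and −1.42), Prkab1 (−0.47 and −0.53) and Slc19a2 (−0.47 and −0.54), in control and knockdown cells in turn. Lif (0.53), the long non-coding RNA Trp53cor1, listed as Gm16197 (0.73), Zfp365 (−0.90) and Psrc1 (−0.34, named after its values were seen) were so called in knockdown cells alone, a difference between the hairpins that was not called by the interaction test.

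**Figure D4:**
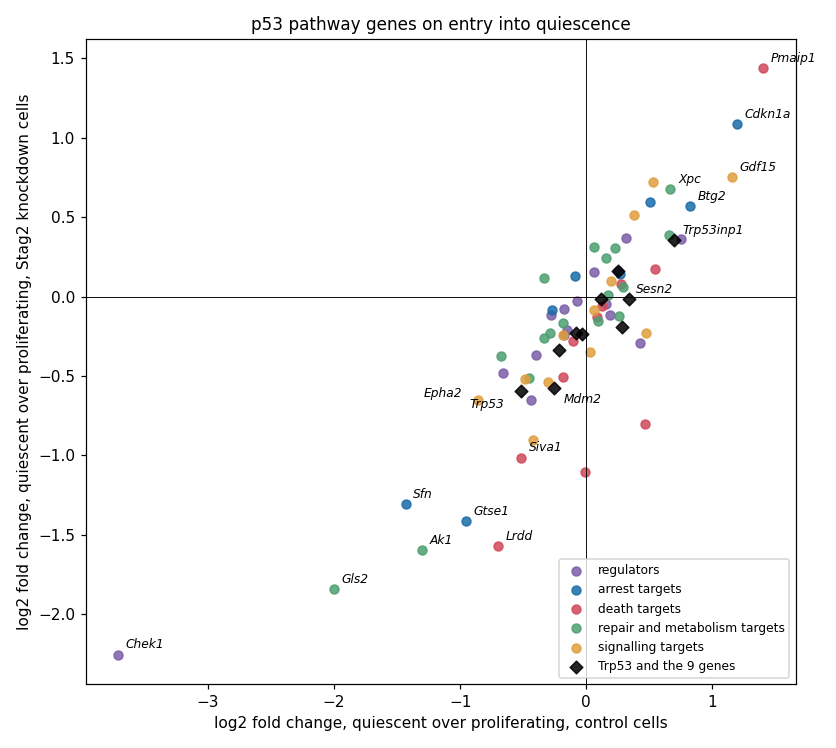
Each point is 1 gene of the p53 pathway that passed the filter; the horizontal axis is its log2 fold change for quiescence in control cells and the vertical axis that in Stag2 knockdown cells. Cdkn1a and Pmaip1 lie at the upper right and Chek1 at the lower left, while Trp53 and Mdm2 (black diamonds) lie below 0 on both axes.

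Of the upstream regulators, Chek1, the checkpoint kinase that acts below Atr, had the most negative log2 fold change for quiescence on the list. It stood at 17.8, 26.0 and 25.4 CPM in proliferating and 1.38, 1.84 and 2.03 CPM in quiescent controls (−3.71, adjusted p 2.99e-05), and fell by 2.25 in knockdown cells (adjusted p 0.000499). In quiescent knockdown libraries it stood at 3.58, 4.77 and 4.45 CPM, above all 3 quiescent controls (1.28, SE 0.28, adjusted p 0.0772). With the replicate block this was the 1 gene of the list called for knockdown in quiescent cells (1.30, adjusted p 0.00471), and DESeq2 called it too. Without the block 0 of 64 were called there, with 6 at an unadjusted p under 0.05. In proliferating cells 0 of 64 were called with or without the block or by DESeq2, with 1 at an unadjusted p under 0.05. Atr fell in control cells (−0.66, adjusted p 0.0311) and with the block in knockdown cells (−0.50, adjusted p 0.0110), as did Usp10, a deubiquitinase of p53, with the block in both (−0.44 and −0.64). Trp53bp1, a repair factor that binds p53, was called higher in knockdown cells with the block only (0.37, adjusted p 0.0494).

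Cdkn2a, whose alternative product p19ARF restrains Mdm2, was detected in every library, from 15.4 to 29.3 CPM. In quiescent cells it stood at 24.4, 17.9 and 29.3 CPM in controls and at 17.3, 17.4 and 15.8 CPM with knockdown. These groups did not overlap, as for 8.85% of all tested genes in this direction, though the closest libraries stood at 17.9 and 17.4 CPM. The log2 difference was −0.51 (SE 0.18, adjusted p 0.281, and 0.109 with the block). Within experiments 5, 7 and 9 it was −0.50, −0.05 and −0.89. Reads of its 2 products were counted as 1 gene. The p53 paralogs were at or near 0: Trp63, which marks basal urothelial cells, had 0 counts in all 12 libraries and Trp73 had 2 counts in all. In these libraries 3 counts, the limit that a count of 0 allows, correspond to 0.136 to 0.207 CPM.

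The genes whose levels over the 12 libraries were most like those of Trp53 were found by the root mean square difference of mean-centred log2 CPM, among 9432 genes whose mean log2 CPM reached 3. They were Kctd3 (0.0926), Srsf3 (0.0943), Rbmxl1 (0.0946) and 2310057M21Rik (0.0948). For Mdm2 they were Spats2 (0.0723), BC048403 (0.0791), Srp72 (0.0951) and Cdk8 (0.0969). Among the members, Aen was nearest to Mdm2 (0.143, rank 51) and nearest to Trp53 (0.192, rank 508). Mdm2 ranked 815 for Trp53, so the 2 called members were not each other's nearest genes. These ranks describe these libraries, which share 4 groups and 3 experiments.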

How the data were processed

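The deposited values are raw counts in whole numbers, 1 row per gene symbol, which the authors had not normalized. Per the submitters' processing notes, Bowtie, TopHat, HTSeq and DESeq2 were used with mm10, and per the labels' protocols the libraries came from polyadenylated RNA prepared with a stranded kit. ERCC spike-ins were added, but no spike-in row was used here. The table had 0 columns of no sample and 0 rows without a gene name. Total counts per library bound the counting error only, since amplified reads are not independent molecules. Replicate pairs differed by far more than sampling noise (chi-square per degree of freedom 38.3 to 104). No source says that experiments were separate cultures, so p-values measure the spread between these libraries.

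The analysis ran edgeR 4.0.16 under R 4.3.3: filterByExpr (minimum count 10, leaving 12406 genes), TMM scaling, glmQLFit with 4 group means, glmQLFTest and Benjamini-Hochberg adjustment over all tested genes (threshold 0.05). Standard errors and 95% intervals came from that fit. Differences within experiments are of log2 CPM with a prior count of 2. The experiment number, which coincides with the batch in the labels, pairs libraries across groups: in 18 of 18 pairs with the same number, deviations from group means correlated (r 0.225 to 0.789). A fit with the experiment as a block was therefore an alternative. Others were median-of-ratios size factors, no filter, a mean count of at least 50, only the libraries of a comparison, DESeq2 1.42.0 and leaving out each library.

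Exon lengths and positions came from GENCODE M21 and promoters from RefSeq. The members and gene lists were chosen with earlier results of these data known. Genes named were Stag2, all members, Cdkn1a, Cdkn2a, Trp63, Trp73, per comparison and list the 3 largest changes each way that passed the threshold with or without the block given a mean log2 CPM of 2 or more, and for Trp53 and Mdm2 the 4 most similar genes. The fitting script was tested on simulated data.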

Additional observations from a re-analysis of the deposited data

How the results depend on the processing

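Counts of called genes moved with the test more than fold changes did. For knockdown in quiescent cells, DESeq2 called 1 member in place of 0, and the wider list had 1 call in place of 0 with the replicate block and by DESeq2 (0 to 1 when 1 library was left out). For quiescence in control cells, members called were 1 with the replicate block, 1 at a mean count of at least 50 and 2 by DESeq2, in place of 0 (0 to 1 with a library left out). At a mean count of at least 50 the calls were 2336 of 10729 genes. With a library left out they ran from 1394 to 3078 of all genes. The wider list had 19 with the replicate block and 6 when only the libraries of the comparison were fitted, in place of 11 (5 to 13 with a library left out), while the calls among all genes were 4374 and 1582 in place of 2481. For quiescence in knockdown cells, members called ran from 0 to 2 with a library left out, beside 1186 to 2408 of all genes. The wider list had 25 with the replicate block in place of 13 (4096 of all genes in place of 2279), and 7 to 15 with a library left out. The replicate block changed no other count of calls of the members. The member median for knockdown in quiescent cells ran from −0.35 to −0.13 with a library left out.

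Several values near 0 changed sign with a library left out, none of them called. For knockdown in proliferating cells the ranges were −0.22 to 0.0190 for Trp53, −0.15 to 0.17 for Mdm2, −0.14 to 0.15 for Mdm4, −0.19 to 0.00645 for Zmat3, −0.0442 to 0.19 for Eda2r, −0.0266 to 0.45 for Trp53inp1 and −0.22 to 0.13 for Aen. For knockdown in quiescent cells they were −0.0932 to 0.0448 for Ccng1, −0.0270 to 0.17 for Phlda3 and −0.37 to 0.0476 for Trp53inp1. For quiescence they were −0.16 to 0.14 for Mdm4 in control cells, and −0.0533 to 0.0397 for Ccng1 and −0.14 to 0.13 for Sesn2 in knockdown cells. For the interaction they were −0.19 to 0.0619 for Trp53, −0.38 to 0.00688 for Mdm4, −0.19 to 0.0107 for Phlda3 and −0.29 to 0.0604 for Aen. Mdm2 in proliferating knockdown cells was 0.0033 with the replicate block and 0.0035 at a mean count of at least 50, in place of −0.0054. Ccng1 in quiescent knockdown cells was −0.00023 with median-of-ratios size factors, −0.019 with no filter, −0.015 with only the libraries of the comparison and −0.0031 by DESeq2, in place of 0.00039. The cause of these shifts was not tested. Counting depth was least for Mdm4, with 578 to 976 counts per library.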
